A study of Mus musculus with 2 samples.

Results

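The 31 genes described here carry out phototransduction in rods and cones of the mouse retina. They were chosen by symbol, and all 31 were found among the 32245 gene symbols of the deposited features. Of these genes, 10 are forms used in rods, 11 are forms used in cones and 10 serve both kinds of photoreceptor. The data were single-cell RNA counts from retinas of 2 groups of mice that had received lipopolysaccharide (LPS), a bacterial cell wall component, at 0.5 µg per eye into the vitreous. The control mice were Atg5fl/fl, with both copies of Atg5 flanked by loxP sites and no Cre. The knockout mice were GLAST-CreER; Atg5fl/fl, in which the Slc1a3 (GLAST) promoter drives a tamoxifen-dependent Cre in Müller glia, and per the labels only they received 4-hydroxy-tamoxifen. Genotype, Cre and drug therefore cannot be told apart, and both groups carried the floxed allele and LPS. The sources used here give no strain, age, sex or delay before harvest. Each group was 1 library made from 6 pooled retinas, so no difference between libraries has a replicate check, and no test between them was possible.

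Phototransduction begins when light isomerises the chromophore of an opsin in the outer segment. The opsin activates transducin, a G protein, which releases the inhibitory gamma subunit from phosphodiesterase 6 (PDE6), and PDE6 then breaks down cyclic GMP so that cyclic nucleotide-gated channels close. Recovery needs opsin kinase and arrestin, the GTPase-accelerating complex around RGS9, and guanylate cyclases that rebuild cyclic GMP when calcium drops. Rods and cones run the same cascade with largely separate sets of subunits, which is why these genes mark the 2 cell kinds so well.

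The control library held 43669961 UMIs (counted RNA molecules) in 8690 barcodes and the knockout library 50676223 in 5229, with 15 barcodes shared. The study's stated filter kept 8274 control and 4662 knockout cells. Clusters were built without the 31 genes and named from other markers. Rod-like cells, 3299 in the control library and 482 in the knockout library, were shallow, with a median of 1113 and 1012.5 UMIs. Cone-like cells numbered 134 and 104, with a median of 7981.5 and 8102.5 UMIs. A further cluster (cluster 1) of 2235 and 457 cells had rod markers at the rod-like level but was led by lens crystallins, and cluster 21, of 76 and 52 shallow cells, had rod markers behind Ccl12, Ccl5 and Ttr; neither was named. Mitochondrial RNA was a median 1.33% of UMIs in control and 4.27% in knockout rod-like cells, and 5.82% and 7.02% in cone-like cells. Atg5 itself was at 20.5 and 20.2 CPM (UMIs per 1000000 UMIs of all genes) in Müller-like cells, but counts near the end of a transcript do not report on a floxed exon, so this checks nothing about the deletion.

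RefSeq promoter sequences (build GRCm38.p6) were matched for 21 of the 31 genes, and the 250 bases before each start were searched on both strands. Not matched were Gnat1, Pde6a, Pde6g, Rcvrn, Guca1b, Rgs9bp, Gnb3, Gngt2, Pde6c and Cngb3. The CRX core TAATCC, letters bound by the photoreceptor factor CRX, was in 9 of the 21 (42.9%), against 6.38% of 27025 mouse promoters. It was in 4 of 7 rod-form, 4 of 7 shared and 1 of 7 cone-form promoters. The NRL site core TGCTGA was in 4 of the 21 (19.0%) against 15.8% of all promoters, and the TATA box TATAAA in 5 (23.8%) against 13.0%. No match overlapped another, and a match is a description of the letters only. The sequences below are those of 2 rod forms, of the shared gene with the lowest ratio in rod-like cells and of the cone opsin with the lowest ratio in cone-like cells. Capitals mark these motifs on either strand. The stretches are chr6:3993758-3994007 on the plus strand for Gngt1, chr1:87803430-87803679 on the plus strand for Sag, chrX:142196937-142197186 on the minus strand for Gucy2f and chr6:29380514-29380763 on the minus strand for Opn1sw.
Gngt1: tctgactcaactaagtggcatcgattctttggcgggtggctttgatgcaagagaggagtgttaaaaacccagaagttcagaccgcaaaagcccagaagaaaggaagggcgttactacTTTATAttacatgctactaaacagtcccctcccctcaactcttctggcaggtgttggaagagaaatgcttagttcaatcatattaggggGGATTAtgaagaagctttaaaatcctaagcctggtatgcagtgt
Sag: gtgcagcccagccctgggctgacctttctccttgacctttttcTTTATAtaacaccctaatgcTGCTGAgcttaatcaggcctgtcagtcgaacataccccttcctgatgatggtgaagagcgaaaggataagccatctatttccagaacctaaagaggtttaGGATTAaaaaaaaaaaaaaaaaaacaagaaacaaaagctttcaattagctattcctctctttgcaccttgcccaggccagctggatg
Gucy2f: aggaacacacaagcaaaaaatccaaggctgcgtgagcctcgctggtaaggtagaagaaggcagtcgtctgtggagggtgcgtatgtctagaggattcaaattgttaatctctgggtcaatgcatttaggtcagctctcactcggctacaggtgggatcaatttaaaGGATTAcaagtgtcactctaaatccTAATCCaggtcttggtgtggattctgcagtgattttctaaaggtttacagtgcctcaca
Opn1sw: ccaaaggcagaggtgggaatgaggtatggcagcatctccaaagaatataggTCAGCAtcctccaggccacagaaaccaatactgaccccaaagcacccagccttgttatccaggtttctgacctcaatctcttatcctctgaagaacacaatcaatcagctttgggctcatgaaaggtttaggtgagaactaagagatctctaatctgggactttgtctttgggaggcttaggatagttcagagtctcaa
The first base of the CRX core lay 44 bases before the start in Gngt1 and 87 bases before it in Sag, which also held 1 NRL core and 1 TATA box. Gucy2f held the core at 84 and 59 bases before its start. The searched stretch of Opn1sw held an NRL core and no CRX core.

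Levels are given in CPM, from the summed UMIs of all cells of a class in a library. The counts come from transcript ends and were not divided by length, so a gene is compared between classes or libraries and not with another gene. Intervals are 95% intervals and cover counting error only. All 10 rod forms were far higher in rod-like cells than the RNA of cone-like cells could give. Sag, the rod arrestin that quenches the active pigment, was at 6728 CPM in control rod-like cells (6650 to 6807) and 4806 in knockout rod-like cells (4654 to 4961). Gnat1, the rod transducin alpha subunit, was at 1647 and 2243 CPM. Its partners were Gnb1, the beta subunit, at 2672 and 2819 CPM, and Gngt1, the gamma subunit, at 1610 and 3420 CPM. Gngt1 was the one of these 3 subunits in which the libraries lay farthest apart.

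The rod effector subunits followed a similar split. Pde6a and Pde6b, the catalytic subunits of rod PDE6, were at 1349 and 1227 CPM and at 1167 and 1023 CPM in control and knockout rod-like cells. Pde6g, the inhibitory subunit that transducin pulls away, was at 741 CPM (715 to 768) and 1553 CPM (1468 to 1643). The catalytic subunits were slightly lower in the knockout library and the inhibitory subunit was higher. Cnga1, the alpha subunit of the rod channel, was at 987 and 1171 CPM, Cngb1, its beta subunit, at 611 and 513 CPM, and Slc24a1, the rod sodium, calcium and potassium exchanger, at 519.9 and 625 CPM.

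The shared genes, which shut the cascade off or restore it, were present in rod-like and cone-like cells in different measure. Guca1a, which senses calcium for the guanylate cyclases, was at 787 and 1261 CPM in rod-like cells and at 2394 and 2494 CPM in cone-like cells. Rcvrn, recoverin, which holds back opsin kinase, was at 495 and 1196 CPM in rod-like cells and 1056 and 1091 CPM in cone-like cells. Both were higher in cone-like than in rod-like control cells. Pdc, phosducin, which binds transducin beta and gamma, was at 1514 and 3014 CPM in rod-like and 926 and 673 CPM in cone-like cells. Guca1b was at 764 and 996 CPM in rod-like cells and 191 and 110.4 CPM in cone-like cells.

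The remaining shared genes stood lower in the knockout library or close to the control level in rod-like cells. Grk1, opsin kinase, was at 474 and 349 CPM. The RGS9 complex, which speeds GTP hydrolysis by transducin, was represented by Rgs9 at 842 and 662 CPM, its anchor Rgs9bp at 203 and 153 CPM, and Gnb5 at 714 and 576 CPM. The ratio of knockout to control was 0.786 for Rgs9, 0.754 for Rgs9bp and 0.807 for Gnb5, so the 3 parts of that complex lay close together. Of the guanylate cyclases, Gucy2e was at 231 and 211 CPM and Gucy2f at 328 and 176 CPM.

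The cone forms were set apart from rod-like cells much more sharply. Pde6h, the cone PDE6 inhibitory subunit, was at 6345 CPM in control and 7132 CPM in knockout cone-like cells and at 32.3 and 173 CPM in rod-like cells. Opn1mw, the middle-wavelength opsin, was at 3637 and 3298 CPM in cone-like cells and 30.4 and 26.6 CPM in rod-like cells. Gnb3, the cone transducin beta subunit, was the exception, at 3165 and 3941 CPM in cone-like cells and still 505 and 600.1 CPM in rod-like cells. Cnga3, the cone channel alpha subunit, was thinly measured, at 69.7 and 77.9 CPM in cone-like cells.

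To ask which of these levels could be RNA of the other photoreceptor, the level expected from that RNA alone was set from markers that are not among the 31 genes. In rod-like cells, 21 members lay above 2 times that level in both libraries: the 10 rod forms, the 10 shared genes and, of the cone forms, Gnb3 alone, which was 8.03 and 3.99 times the level that cone RNA would give. In cone-like cells 22 members did: the 11 cone forms, 8 shared genes and 3 rod forms. Those rod forms were Gngt1 at 1914 and 1578 CPM, Pde6g at 844 and 610.2 CPM, and Sag at 2951 and 2098 CPM. In the control library Gngt1 and Pde6g were lower in rod-like than in cone-like cells, with rod over cone ratios of 0.841 and 0.878. In the knockout library these ratios were 2.17 and 2.55. The other 7 rod forms, with Guca1b and Gucy2f, lay below that bound in cone-like cells in at least 1 library. The share of all genes past this bound was not computed, so the counts of 21 and 22 are not read as high or low.

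**Figure D1:**
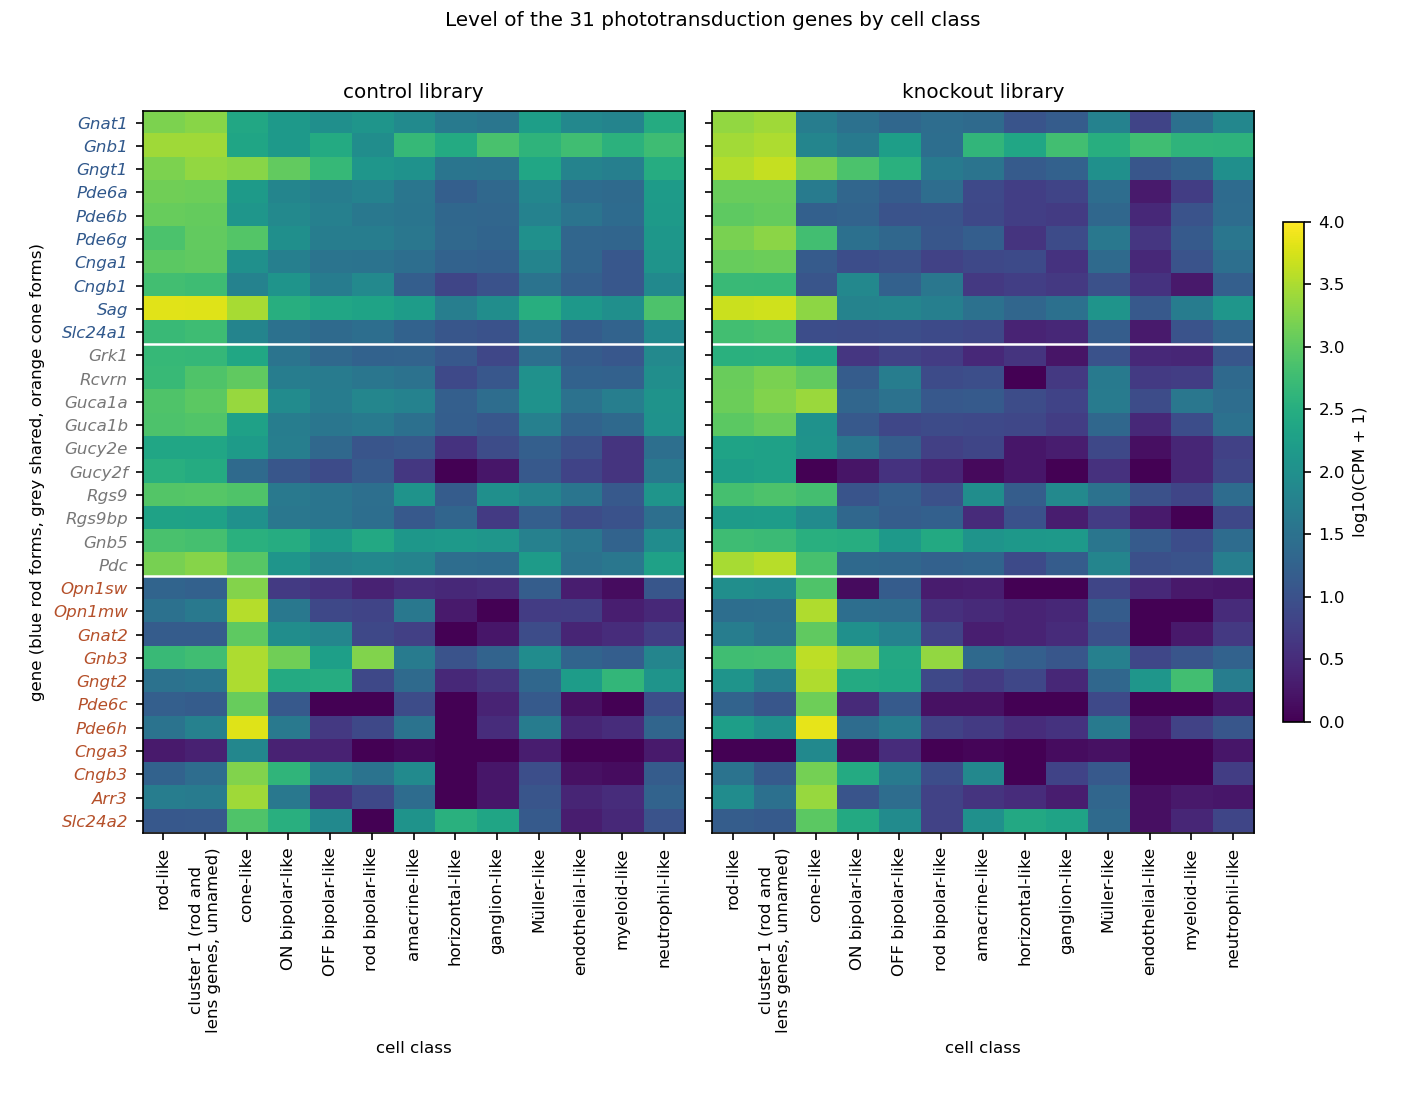
Heat map of the level of each gene, as log10(CPM + 1), by cell class (columns) in the control library (left) and the knockout library (right), with rod forms at the top, shared genes in the middle and cone forms at the bottom. Most rod forms are brightest in rod-like cells and cluster 1, but Gngt1 and Pde6g are higher in cone-like than in rod-like control cells. Cone forms are brightest in cone-like cells, and Gnb3, Gngt2, Cngb3 and Slc24a2 are also bright in some other classes.

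The next comparison set the knockout library against the control within rod-like cells. Of the 31 members, 26 had at least 100 UMIs there, the minimum for a ratio. At a bound of 1.5-fold, 9 were higher in the knockout library, where 11.6% of 7468 measured genes were, and 1 was lower, where 15.5% were. The median log2 ratio of the 26 was 0.25, beside -0.14 over all measured genes. Because 4 of the 9 were cone forms resting on a few cells (below), the rod and shared genes are described first.

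Among those, 5 were higher at this bound. The ratio of knockout to control was 2.42 (2.24 to 2.61) for Rcvrn, chr11:67695326-67703333. It was 2.12 (2.03 to 2.22) for Gngt1, chr6:3993792-3997436, and 2.10 (1.96 to 2.24) for Pde6g, chr11:120447605-120453500. These encode a calcium sensor, the transducin gamma subunit and the PDE6 inhibitory subunit. Pdc, chr1:150319417-150333906, had a ratio of 1.99 (1.90 to 2.09), and Guca1a, chr17:47394558-47400584, 1.60 (1.49 to 1.72). Rcvrn overlaps Glp2r on the other strand, and Pdc overlaps the predicted gene Gm37764 on the same strand.

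The member lower at this bound was Gucy2f, chrX:142081160-142196931, a membrane guanylate cyclase, with a ratio of 0.537 (0.447 to 0.639). Sag at 0.714 (0.69 to 0.739) and Grk1 at 0.738 (0.648 to 0.837) were lower by less than the bound. Both act to shut off the pigment. The other 12 rod and shared genes had ratios from 0.754 (Rgs9bp) to 1.36 (Gnat1). By group, the median log2 ratio was 0.16 for the 10 rod forms, of which 2 were higher, and -0.22 for the 10 shared genes, of which 3 were higher and 1 lower.

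**Figure D2:**
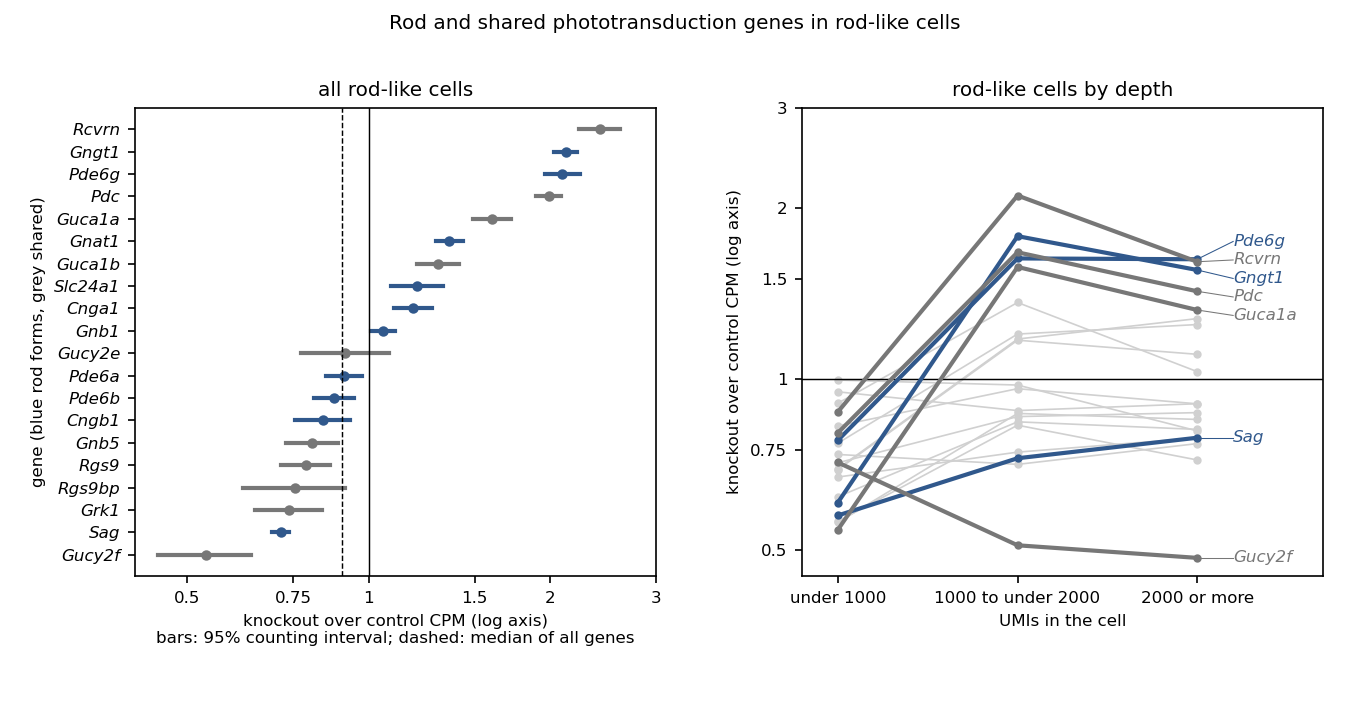
Ratio of knockout to control CPM (log axes) for the 20 rod and shared genes. Left, all rod-like cells, with points for the ratio, bars for the 95% counting interval and a dashed line at the median of all measured genes; right, the same ratio in rod-like cells by UMIs per cell, with 7 genes in heavy lines and named. Rcvrn, Gngt1, Pde6g, Pdc and Guca1a lie highest at left and all lie below 1 in the shallowest cells at right.

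These 5 higher ratios depended on the depth of the cells. In rod-like cells under 1000 UMIs (1197 control and 239 knockout cells), Gngt1 was at 1535 CPM in the control library and 930 CPM in the knockout library, a ratio of 0.606. Guca1a was at 742 and 402 CPM there, a ratio of 0.542. All 5 genes were below 1 in these cells, with Rcvrn at 0.875 (0.658 to 1.15), Pdc at 0.803 and Pde6g at 0.780. Of 21 members measured in these cells none was higher by 1.5-fold, where 6.58% of 2749 genes were, and 6 were lower, where 11.7% were. The median log2 ratio was -0.47, beside -0.098 over all measured genes. In cells of at least 1000 UMIs, 10 of 26 measured members were higher, where 13.2% of 6415 genes were, and 1 was lower, where 22.3% were. The rod markers outside the 31 genes include Rom1. Their summed level was 3805 CPM in control and 2972 CPM in knockout cells under 1000 UMIs. It was 3628 and 4269 CPM in cells of 1000 to under 2000 UMIs, and 4612 and 5117 CPM in deeper cells. Over all rod-like cells Rom1 had the highest ratio of these markers, 1.90. Reep6 stood at 1.27 and Nrl at 1.03, while Nr2e3, Samd11, Esrrb, Nt5e and Susd3 ran from 0.685 (Nt5e) to 0.826 (Susd3). The median mitochondrial share was 1.07% and 2.91% in cells under 1000 UMIs. The part of these measures in the ratios was not tested.

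In the finer bands, cells of 1000 to under 2000 UMIs gave Rcvrn a ratio of 2.10, Gngt1 1.78, Pdc 1.67, Pde6g 1.63 and Guca1a 1.58. Cells of 2000 UMIs or more gave the same 5 genes ratios from 1.32 (Guca1a) to 1.62 (Pde6g). Deep cells weighed more in the knockout library, where the 119 cells of at least 2000 UMIs held 54.9% of the UMIs of rod-like cells. In the control library 220 such cells held 16.9%. Gucy2f went the other way, at 0.712, 0.509 and 0.484 from the shallowest to the deepest cells, and Sag stayed below 1 in each, at 0.575, 0.725 and 0.788.

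Several measures of the cells moved with these ratios, and their part in the result was not tested. Besides the mitochondrial share given above, Malat1, a nuclear RNA, was at 24266 CPM in control and 30955 CPM in knockout rod-like cells, and ribosomal protein RNA was 1.77% and 4.12% of UMIs. Within the control library, Rcvrn was 1.29 times (1.17 to 1.42) as high in rod-like cells of at least 2% mitochondrial UMIs as in those under 1%, Gngt1 1.11 times and Sag 0.816 times. Within the knockout library the same contrast gave 3.69 for Rcvrn, 3.04 for Gngt1 and 1.28 for Sag. Across the 20 rod and shared genes, the control contrast and the ratio between libraries had a Spearman rho of 0.869, and gene length and the ratio one of -0.656. Both are descriptions across genes measured in the same control cells, and genes are not replicates. The ratios between libraries also differed by mitochondrial share. In rod-like cells under 1% (1451 control and 65 knockout cells) all 5 ratios were below 1. Gngt1 at 0.879 (0.712 to 1.07), Rcvrn at 0.885 (0.589 to 1.28) and Guca1a at 0.900 (0.667 to 1.19) had intervals that include 1. Pde6g stood at 0.684 (0.476 to 0.952) and Pdc at 0.807 (0.647 to 0.994). At 1 to 2% the 5 genes ran from 1.05 (Guca1a) to 1.56 (Pde6g), with Gngt1 at 1.16. At 2 to 6% Gngt1 stood at 2.23 and Rcvrn at 2.08, and of 21 measured members 5 were higher, where 13.8% of 2792 genes were, and 1 was lower, where 17.7% were. At 6% or more the 5 genes ran from 2.10 (Guca1a) to 3.25 (Rcvrn).

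The ratios were also taken in clusters 0, 2 and 1 apart, which share the 2 libraries and are not replicates. Gngt1, Pde6g, Rcvrn, Pdc and Guca1a were higher by 1.5-fold in both rod-like clusters, clusters 0 and 2. In cluster 0, 8 of 25 measured members were higher where 11.4% of 6538 genes were, and 1, Gucy2f, was lower where 18% were. In cluster 2, 6 of 21 were higher where 13.4% of 2559 genes were, and 1, again Gucy2f, was lower where 19.5% were. Gngt1 stood at 2.07 and 2.15 and Rcvrn at 2.33 and 2.50 in the 2 clusters. In cluster 1, the unnamed cluster with lens crystallin RNA, 8 of 27 measured members were higher where 11.2% of 7362 genes were, and 2 were lower where 14.7% were. Gngt1 stood at 1.99, Rcvrn at 1.97, Pdc at 1.96, Pde6g at 1.79 and Guca1a at 1.75 there. Of these clusters Guca1b reached the bound in cluster 1 alone, and Gucy2f did not quite reach it there, at 0.671. Crystallins made up 0.453% of control UMIs of cluster 1 and 0.006% of knockout UMIs, and their part in these ratios was not tested. No ratios were taken in cluster 21, where rod forms were 1.48% of control and 0.470% of knockout UMIs and shared genes 0.582% and 0.261%.

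Other photoreceptor genes in rod-like cells mostly lay within the bound, as did most measured genes. Of all 7468 measured genes there, 11.6% were higher and 15.5% lower. Of 16 outer segment and structural genes, 2 were higher and none lower. They were Rom1, a disc rim protein, at 1115 and 2114 CPM (ratio 1.90), and Unc119, which ferries transducin alpha, at 952 and 1586 CPM (1.67). Prph2, the partner of Rom1 at the disc rim, was at 2165 and 2518 CPM. Of 8 synapse genes none was past the bound. Of 9 measured photoreceptor transcription factors Neurod1 was higher (1.65), and Crx (0.66) and Thrb (0.653) were lower, while Nrl, which sets rod identity, was at 465 and 477 CPM.

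The cone forms counted in rod-like cells rested on few cells. Opn1sw had 76 UMIs in 54 control rod-like cells and 74 UMIs in 4 knockout cells, of which 68 were in 1 cell. Pde6h had 135 UMIs in 113 control cells and 137 in 20 knockout cells, with 89.1% of the latter in the 5 richest cells. For Gngt2 those 5 cells held 87.0% of the knockout UMIs and for Arr3 91.2%. Without the 5 richest cells of each gene in each library, the ratios of Arr3, Gngt2 and Pde6h turned from 1.79, 3.75 and 5.37 to 0.298, 0.616 and 0.717. Leaving out 5 cells takes a larger part of 482 knockout than of 3299 control cells, and the median log2 ratio over all measured genes was -0.42 under that setting. Of 24 measured members 4 were then higher, where 7.22% of 6968 genes were, and 4 lower, where 37.2% were, with a median of -0.24. None of these 4 genes exceeded 2 times the level of cone RNA in both libraries. Gnb3 was the cone form seen in many rod-like cells (1321 control and 198 knockout cells), with a ratio of 1.19 (1.07 to 1.31).

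In cone-like cells the cone cascade was near level between the libraries, apart from Opn1sw. Of the 31 members 30 had at least 50 UMIs there. None was higher by 1.5-fold in the knockout library, where 3.66% of 5899 genes were, and 9 were lower, where 6.34% were. The median log2 ratio was -0.28 over the 30 members and -0.028 over all measured genes. Of the 9, 7 were rod forms, 1 was the shared gene Guca1b and 1 was Opn1sw.

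For the cone forms other than Opn1sw, ratios lay between 0.827 (Cngb3) and 1.25 (Slc24a2). Gnat2, the cone transducin alpha subunit, was at 1016 CPM in the control library and 1041 CPM in the knockout library, a ratio of 1.03 (0.933 to 1.13). Gngt2, its gamma subunit, was at 3211 and 3321 CPM, and Gnb3 had a ratio of 1.25 (1.18 to 1.31). The ratios of the 3 transducin subunits thus lay between 1.03 and 1.25. Pde6c, the cone catalytic subunit, was at 1173 and 1310 CPM, a ratio of 1.12 (1.03 to 1.22), and Pde6h had a ratio of 1.12 (1.08 to 1.17). Of the channel subunits, Cnga3 had a ratio of 1.12 (0.777 to 1.61) and Cngb3, at 1739 and 1439 CPM, 0.827 (0.766 to 0.893). Arr3, cone arrestin, was at 2708 and 2425 CPM, and Slc24a2, the cone exchanger, at 790.1 and 985 CPM.

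The 7 rod forms that were lower in knockout cone-like cells stood, in control cone-like cells, between 0.65 (Gnb1) and 1.15 (Gnat1) times the level that rod RNA would give. Gnat1 was at 246 CPM in the control library and 48.0 CPM in the knockout library, a ratio of 0.195 (0.134 to 0.277). Pde6b was at 125 and 15.6 CPM, Cnga1 at 102 and 13.0 CPM and Slc24a1 at 63.5 and 7.79 CPM. Gnb1, Pde6a and Cngb1 had ratios of 0.292, 0.308 and 0.181. Gucy2f, with too few UMIs for a ratio, was at 23.6 CPM (23 UMIs) in the control library and had 0 UMIs in the knockout library, which allows up to 3.90 CPM there.

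Rod markers outside the 31 genes were lower in the same cells. Nrl was at 74.8 CPM in control and 7.79 CPM in knockout cone-like cells, and Nr2e3 at 49.2 and 6.49 CPM. The summed level of 7 rod markers, leaving out Rom1, which cones also express, was 13.0% of its rod-like level in control cone-like cells and 3.83% in knockout cone-like cells. With the rod-like profile subtracted in that amount, the 7 rod forms fell under the minimum of 50 UMIs and had no ratio. Of the 23 members still measured, none was higher, where 9.36% of 5425 genes were, and 1 (Opn1sw) was lower, where 2.49% were; Guca1b stood at 0.795. Gngt1, Pde6g and Sag, the rod forms above the rod RNA level, had ratios of 0.824, 0.723 and 0.711 as counted.

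**Figure D3:**
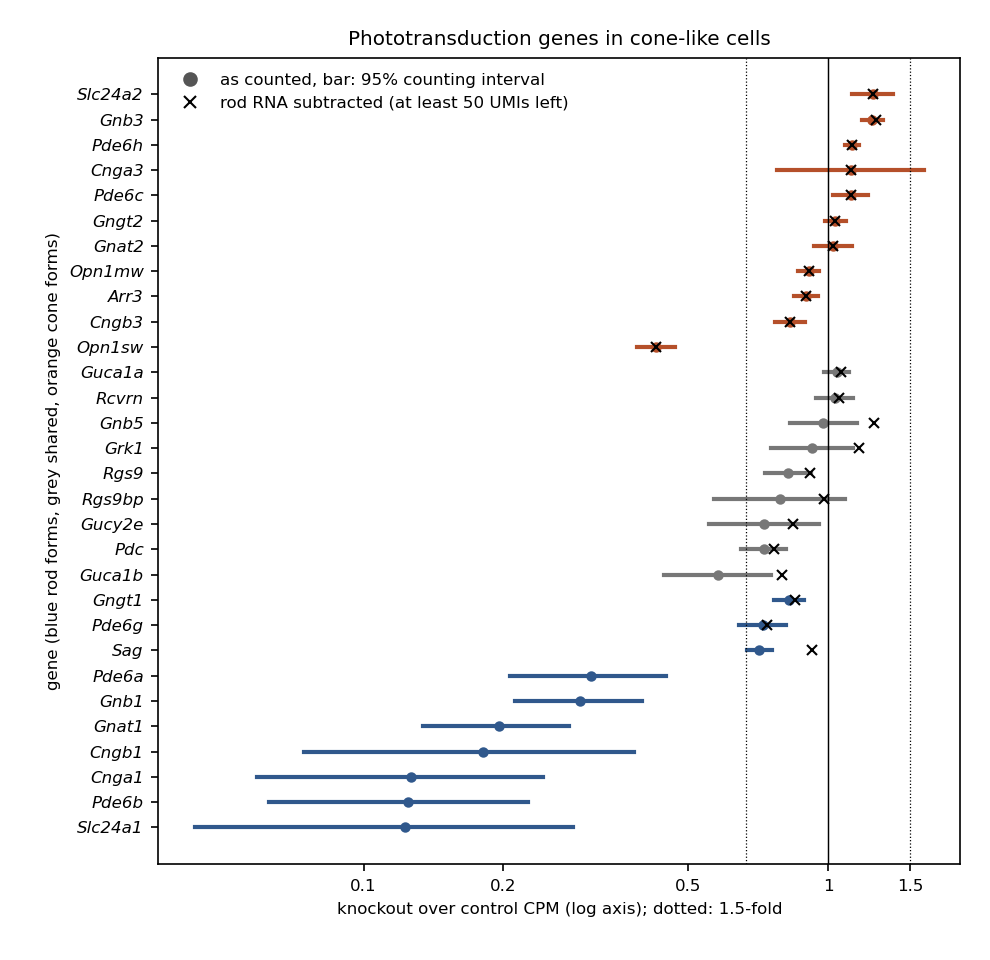
Ratio of knockout to control CPM (log axis) in cone-like cells for the 30 members with at least 50 UMIs, grouped as rod forms (bottom), shared genes and cone forms (top). Coloured points and bars give the ratio and its 95% counting interval, crosses the ratio after subtracting rod RNA where at least 50 UMIs were left, and dotted lines the 1.5-fold bound; Opn1sw is the cone form that stands apart.

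Opn1sw, the short-wavelength opsin (chr6:29376671-29388468), was at 1823 CPM (1739 to 1910) in control and 778 CPM (717 to 843) in knockout cone-like cells. Its ratio was 0.427 (0.388 to 0.468), while that of Opn1mw (chrX:74127464-74150760) was 0.907 (0.861 to 0.955). Opn1sw UMIs were 33.4% of both opsins' UMIs in the control library and 19.1% in the knockout library. Cells were also assigned one by one from their markers, which placed 493 control and 83 knockout cells among cone-like cells. The ratio of Opn1sw was then 1.09. The cone markers used include Thrb, which was at 821 and 536 CPM in rod-like and 870 and 813 CPM in cone-like cells. How many of the 493 cells were rods was not tested. Opn1sw overlaps Calu on the other strand.

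The split of cells between the opsins was alike in both libraries where a cell had at least 10 opsin UMIs. Of cells with at least 10 opsin UMIs, 12 of 81 control cells (14.8%, 7.90 to 24.4) and 11 of 72 knockout cells (15.3%, 7.88 to 25.7) had at least 80% of them from Opn1sw. Those with under 20% from Opn1sw were 56 of 81 and 50 of 72. Over all cone-like cells, 39 of 134 control cells (29.1%, 21.6 to 37.6) and 14 of 104 knockout cells (13.5%, 7.56 to 21.6) had neither opsin. Those with Opn1mw only were 40.3% and 54.8%. The count within Opn1sw cells also differed. In the 25 control cells with at least 10 Opn1sw UMIs the lowest, median and highest counts were 12, 60 and 154, and in the 19 knockout cells they were 12, 29 and 60. Of these cells 13 control and 1 knockout cell had 60 or more. Their median depth was 10241 UMIs in the control library and 8703 in the knockout library, and their median level 5811 and 3701 CPM. For Opn1mw, the 72 control and 60 knockout cells with at least 10 UMIs had medians of 48 and 37.5 UMIs. Cone-like cells held 83.4% of the control and 60.3% of the knockout UMIs of Opn1sw, and 84.1% and 81.0% of those of Opn1mw. In the knockout library 1 rod-like cell held 68 Opn1sw UMIs. The 5 richest cone-like cells held 38.7% and 40.7% of the Opn1sw UMIs of their class. Beyond the assignment of cells one by one, the part of cell naming in these values was not tested.

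**Figure D4:**
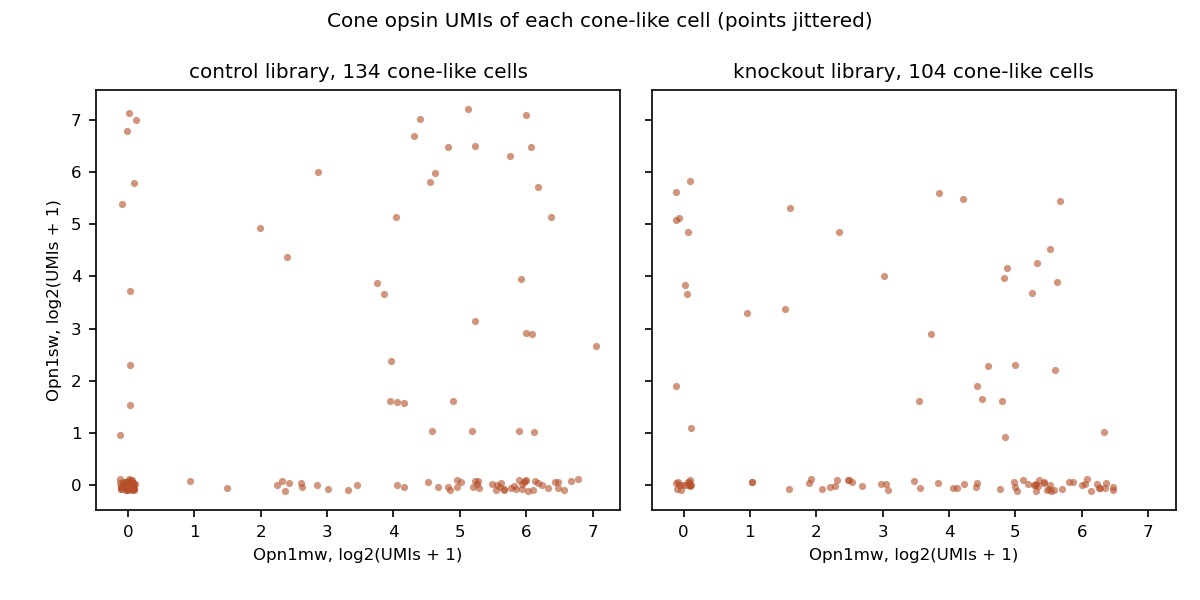
Each point is a cone-like cell, placed by its Opn1mw UMIs (x axis) and Opn1sw UMIs (y axis), both as log2(UMIs + 1) with slight jitter, for 134 control and 104 knockout cells. Cells along the axes have 1 opsin; the highest Opn1sw counts reach 154 UMIs in the control library and 60 in the knockout library.

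Some cone-like cells carried little cone RNA. Over Gnat2, Pde6c, Pde6h, Cnga3, Cngb3 and Arr3 together, 40 of 134 control and 16 of 104 knockout cells had under 10 UMIs, and these were shallow, with a median of 1282 and 1100 UMIs in all. Without them, in 94 control and 88 knockout cells, the ratio of Opn1sw was 0.413 (0.376 to 0.453) and that of Opn1mw 0.875. Of 28 members measured in those cells none was higher by 1.5-fold, where 3.93% of 5677 genes were, and 6 were lower, where 5.74% were.

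The last question was how much of this RNA lay outside photoreceptors. Of all UMIs of the 31 genes, 18.8% in the control library and 35.9% in the knockout library were in cells of named non-photoreceptor classes, which were 22.0% and 54.9% of the cells. The share was lowest for Opn1sw in the control library, at 6.8%, and highest for Slc24a2, at 51.7%. Gnb3 was at 45.3% and 70.5%, Gngt2 at 41.2% and 42.9% and Cngb3 at 38.0% and 47.1%. Among rod and shared genes Gnb5 (29.6% and 64.4%) and Gnb1 (29.1% and 59.5%) had the largest shares. With every cell thinned to 600 UMIs, so that deep cells no longer weigh more, the share over all members was 4.09% and 13.9%.

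**Figure D5:**
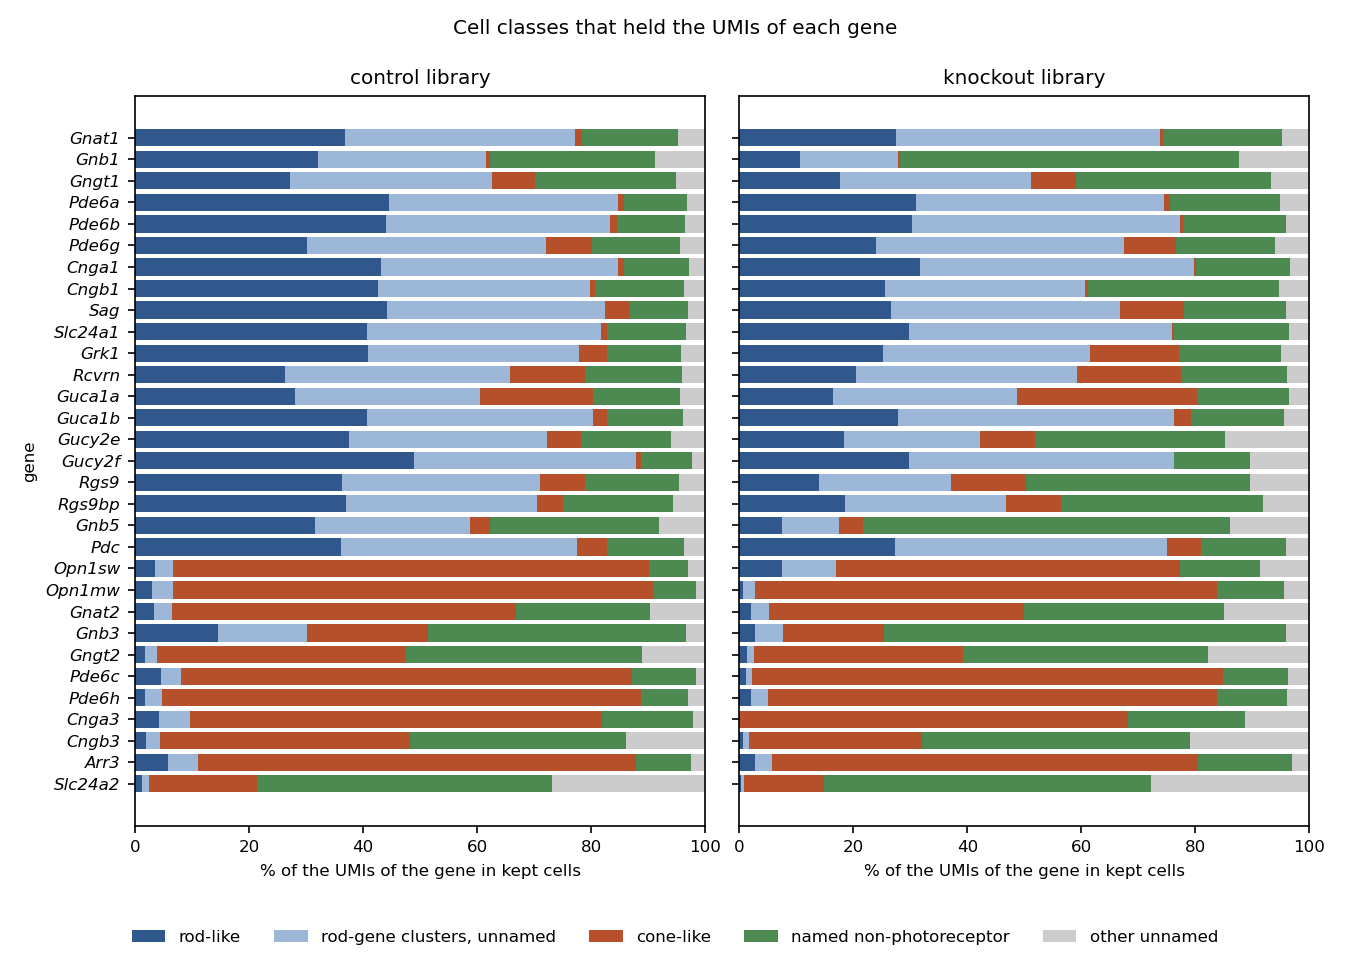
Stacked bars of the share of the UMIs of each gene (x axis, percent) held by rod-like cells, unnamed clusters with rod genes, cone-like cells, named non-photoreceptor classes and other unnamed clusters, in the control (left) and knockout library (right). The non-photoreceptor share in the control library runs from 6.8% for Opn1sw to 51.7% for Slc24a2.

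Named non-photoreceptor classes held 60688 control and 57128 knockout member UMIs. Gnb1 and Gnb3, which exceeded the free-RNA level in some classes (below), held 10121 and 6588 of them in the control library. In the knockout library they held 12414 and 12110. The level that free photoreceptor RNA would give was set from 23 other photoreceptor genes. In neutrophil-like cells, which are not photoreceptors, the summed level of those genes was 14.1% of its photoreceptor level in the control library and 3.89% in the knockout library. Sag was at 769 and 125 CPM in these cells, where 862 and 158 CPM would come from free RNA, and no member exceeded 2 times that level in both libraries. In the 4 named classes with at least 100 cells in each library, 8 members exceeded it: Gnb1, Gnb3, Gnb5, Gngt2, Gnat2, Cngb3, Rgs9 and Slc24a2. The remaining 23, among them the opsins, the PDE6 subunits, Gnat1, the arrestins, opsin kinase and the cyclases, did not exceed it in both libraries in any of these 4 classes. This does not show that they were free RNA alone. In knockout bipolar-like cells Gnat1, Sag and Pdc stood at 0.181, 0.184 and 0.098 times the expected level. Cngb1 and Gucy2e stood at 1.51 and 1.44 times it. A gene there can thus lie under the bound and still be out of proportion to Gnat1. The share of all genes past the bound was not computed in any class. The counts of members past it are therefore not read as high or low.

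Bipolar-like cells, which take the signal from photoreceptors, held 6 of the 8. Gnb3 was at 1121 CPM in control and 1378 CPM in knockout bipolar-like cells, 11.8 and 10.9 times the free-RNA level. It was highest in rod bipolar-like cells, at 1722 and 2210 CPM, and in ON bipolar-like cells, at 1338 and 2003 CPM. Gnb3 works there with the metabotropic glutamate receptor cascade of ON bipolar cells. In OFF bipolar-like cells Gnb3 was at 180 and 258 CPM, 2.03 and 2.09 times the free-RNA level. It did not pass there, which does not show that it was absent. Cngb3 was at 419 and 278 CPM in ON bipolar-like cells, and Slc24a2 at 336 and 264 CPM. Gngt1 passed in ON bipolar-like cells, at 1078 and 725 CPM against 257 and 311 CPM from free RNA, and Gnat2 at 90.7 and 101 CPM. Gngt2 passed in both ON bipolar-like cells, at 274 and 279.7 CPM, and OFF bipolar-like cells, at 297 and 243 CPM.

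In amacrine-like cells, inhibitory interneurons, 5 members passed. Gnb1 was at 474 and 427 CPM, Gnb5 at 132 and 118 CPM and Rgs9 at 113 and 91.2 CPM. Cngb3 was at 80.3 and 72.5 CPM and Slc24a2 at 112 and 100.2 CPM. These genes therefore had a level in amacrine-like cells in both libraries that free photoreceptor RNA, at 4.53% and 1.76% of the photoreceptor level, did not reach. Free RNA from other classes was not modelled.

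Classes with fewer than 100 cells in a library are given for their values alone. Slc24a2 was at 342 and 258 CPM in horizontal-like cells and at 223 and 211 CPM in ganglion-like cells. Gnb1, which serves many receptors, was at 713 and 605 CPM in ganglion-like and 587 and 584 CPM in endothelial-like cells. Gngt2 was at 437 and 618 CPM in myeloid-like and 159 and 127 CPM in endothelial-like cells, 41.6 and 39.5 times the free-RNA level in the former. It overlaps Abi3 on the other strand. Among Müller-like cells, the cells in which Cre was driven, Gnb1 alone passed in both libraries, at 399 and 323 CPM.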

How the data were processed

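Dissociated retinal cells of each group were made into a 10x Genomics 3' library per the labels' protocols. The authors deposited raw UMI counts per gene and barcode, made with Cell Ranger 6.0.0 on mm10, and Seurat 5.2.1 appears in the submitters' processing notes. No annotation release is named in the sources used here. Coordinates and overlaps were taken from GENCODE annotation of the same build. Of 32285 features 40 repeated a symbol, and the first of each was used.

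As the design text states, the filter kept cells of at least 500 genes whose mitochondrial UMIs were under 25%. They were clustered in R 4.3.3 with Seurat 5.3.0 (log-normalised values, 2000 variable genes less the 8 that were members, 11 principal components, resolution 1, seed 1). Clusters were named from 16 marker lists that hold no member: at least 3 markers with 10 UMIs, a mean log2 fold over the median cluster (5 CPM added) of at least 1 and a lead of at least 1, and no majority of another class's markers among the top 10 genes. A cluster with a median depth far below that of its sample and none of its markers among those genes stayed unnamed. Unnamed clusters with a rod score of at least 3, a bound set after the data were seen, joined rod-like and cone-like cells in the photoreceptor pool. Cell names were rebuilt here, so they may differ from the study's own.

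UMIs were summed per class and library. CPM has exact Poisson intervals, ratios exact conditional binomial intervals and shares exact binomial (Clopper-Pearson) intervals, all at 95% and for counting error only. Log2 ratios had 0.5 added to both counts. With 1 library per group there is no test and no p-value. A ratio was read at 100 UMIs in rod-like and 50 in cone-like cells, over both libraries. All members are accounted for, with values for those above these minimums. A member passed the free-RNA level in a class where it had at least 10 UMIs and its lower bound exceeded 2 times its pool level scaled by the summed level of 23 photoreceptor genes; for rod RNA in cone-like cells 7 rod markers were used, and for cone RNA in rod-like cells 6 cone markers. A count of 0 is given with a limit of 3 counts. The ratio rule was tested on simulated counts.

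Doublets were looked for with Scrublet in scanpy 1.11.5, which called 0 of 8274 and 0 of 4662 cells and so has not worked; none was removed, and an alternative left out the 548 and 174 highest scores (0.8% per 1000 cells). Other alternatives were TMM scaling (edgeR 4.0.16), mean per-cell CPM, thinning to 600 UMIs, other minimums, bounds, clusterings, cell filters and cell sets. Sums and intervals were computed in Python 3.11.15 (pandas 2.3.3, numpy 2.4.6; scipy 1.17.1). The members and lists were chosen with earlier results of these data known.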

Additional observations from a re-analysis of the deposited data

How the results depend on the processing

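No paired analysis was possible because each group is 1 library. In rod-like cells 9 of 26 measured members were higher and 1 lower (11.6% and 15.5% of all genes). Thinning to 600 UMIs gave 4 and 2 of 21 (11.1% and 13.4% of all genes), members kept in clustering 5 and 5 of 25 (11.4% and 17.7%), and a per-cell marker call 5 and 0 of 21 (13.7% and 20.8%). The richest 5 cells of each gene left out gave 4 and 4 of 24 (7.22% and 37.2%; median log2 ratio -0.24), and cells under 1000 UMIs 0 and 6 of 21 (6.58% and 11.7%; median -0.47). Mean per-cell CPM gave 7 higher and 2 lower of 26 (10.8% and 11.7% of all genes). A 2-fold bound gave 6 and 0 of 26 (3.51% and 2.52%). Crystallins left out of clustering gave 8 and 3 of 27 (11.5% and 16.3%). Joining the unnamed clusters with rod genes to the rod-like cells gave 11 and 1 of 30 (10.8% and 14.6%). Cells of 2 to 6% mitochondrial share, chosen after seeing the data, gave 5 and 1 of 21 (13.8% and 17.7%). In cells under 1000 UMIs the ratios turned to 0.607 for Gngt1, 0.783 for Pde6g, 0.881 for Rcvrn, 0.546 for Guca1a and 0.805 for Pdc (0.5 added to counts). In rod-like cells Arr3 turned to 0.537 with members kept in clustering, 0.588 with crystallins left out, 0.712 under 10% mitochondrial share and 0.298 without the richest 5 cells. Gngt2 turned to 0.519 and 0.616, and Pde6h to 0.508 and 0.717, with members kept and without those 5 cells. At resolution 0.5 no cluster was rod-like, so there is no rod value.

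In cone-like cells, 8 members rather than 0 were higher and 12 rather than 9 lower under the per-cell marker call. The shares of all genes were 10.8% and 19.0%. That call placed 493 control and 83 knockout cells there and gave Opn1sw a ratio of 1.09. Its cone markers include Thrb, at 821 CPM in control rod-like and 870 CPM in control cone-like cells of the main clustering. Subtracting rod RNA, chosen after seeing the data, left 23 members measured, without the 7 rod forms that had been lower, and 1 of them lower (median -0.031, beside 0.13 over all genes), and thinning gave a median of 0.053 over 19 members (0.12 over all genes). A bound of 3 times the free-RNA level left 5 of 8 members. The control and knockout shares of member UMIs in non-photoreceptor cells (18.8% and 35.9%) were 4.09% and 13.9% thinned, 19.4% and 37.3% with members kept in clustering, 22.7% and 42.7% at resolution 0.5, 14.9% and 25.6% by per-cell call, 19.5% and 37.7% under 10% mitochondrial share, 19.4% and 33.7% without likely doublets, and 18.5% and 36.2% without the richest 5 cells. Of 782 single-gene ratios under alternatives, 593 stayed within the counting interval, 175 moved outside it without turning and 14 turned. The causes were not tested, beyond what each setting changes by construction.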
